A study of Mus musculus with 2 samples.

Results

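Homeobox genes encode transcription factors that bind DNA through a homeodomain, and 44 of them were followed across the cell types of the arcuate nucleus and median eminence. They were chosen by gene symbol, with earlier results of these data known, and Irx5 and its Iroquois relatives were among them. All 44 were present in both deposited tables, which share 25619 genes. By family they were 12 TALE genes (Irx, Meis, Pbx and Tgif), 7 LIM genes, 3 paired-like genes, 5 Dlx and Gsx genes, 2 sine oculis-type genes (Six3 and Six6), 5 NK-like genes, 2 POU genes, 4 CUT genes, 3 zinc finger homeobox genes and Hopx.

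The samples were 2 Drop-seq libraries, in which transcripts are counted as unique molecular identifiers (UMIs) from the 3' ends of mRNA in single droplets. One came from Irx5KO mice, labelled Irx5-/-, with cells of 6 mice pooled, and the other from wild-type (WT) mice, with cells of 7 mice pooled. Both groups were CD-1 mice aged 7 to 8 weeks, and in both the arcuate nucleus and median eminence were microdissected and live cells were sorted. Which part of Irx5 the allele lacks was not given in the sources used here. Since each genotype is 1 pool in 1 library, no difference between genotypes has a replicate check, mice within a pool cannot be told apart, and genotype cannot be told apart from library. Values are therefore given for both libraries with 95% intervals that cover counting error only.

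After filtering there were 1949 Irx5KO cells with 4915775 UMIs and 1841 WT cells with 3960089 UMIs, at a median of 1692 UMIs per Irx5KO cell and 1621 UMIs per WT cell. Cells were clustered and named without the 44 genes or 157 other homeobox genes, so that the levels of these genes were not used to define the classes. Transcripts that overlap them, such as Six3os1 at Six3, were not left out. Neuron-like cells were 896 in Irx5KO and 635 in WT, tanycyte-like cells 421 and 292, ependymal-like cells 44 and 140, oligodendrocyte precursor (OPC)-like cells 78 and 187, and pars tuberalis-like cells 46 and 80. All 10 tanycyte, 8 neuron, 7 ependymal and 7 OPC markers and 5 of 6 pars tuberalis markers were detected in the class named for them in each library. This is no check of the names, since the classes were named from these markers. Neuron-like cells also had UMIs of all 10 tanycyte and all 7 OPC markers in each library. A single barcode sequence occurred in both libraries. The Pomc-like neuron cluster was led by the heat shock gene Hspa1a and the early response gene Fosb beside Pomc. Ependymal-like and pars tuberalis-like cells numbered under 50 in the Irx5KO library, so their values stand side by side without a count of differences. In a mixture of mice and cells, a lower summed level cannot be told apart between fewer expressing cells and less RNA per cell.

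Homeodomain factors act in combinations. In the embryo they divide the hypothalamus into territories, and in the adult many stay on in single cell types, where they maintain the genes of that type. TALE factors such as Meis and Pbx bind DNA together with other homeodomain proteins, LIM factors carry additional domains for protein contacts, and Dlx factors are known for the development of GABA neurons. Irx genes lie in clusters in the genome. In the GENCODE M21 annotation of GRCm38 (mm10), Irx5 lies on chromosome 8 from 92357625 to 92376286 on the plus strand, 555.6 kb from Irx3 and 298.0 kb from Irx6, while Irx1 and Irx2 are 665.1 kb apart on chromosome 13. Other close pairs were Dlx1 and Dlx2, 9.4 kb apart on chromosome 2, Dlx6 and Dlx5, 9.2 kb apart on chromosome 6, and Hmx3 and Hmx2, 3.8 kb apart on chromosome 7.

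The promoters of a few genes on which the results turn are shown, namely Irx3, the neighbour of the deleted gene, and Lhx1, Six3 and Six6, which were high together in a neuron type described with the neurons. Each is 300 bases, from 250 before to 50 after a start site, in RefSeq's GRCm38.p6 sequence, 5' to 3' on the strand of the gene, and capitals mark TGACAG or its reverse complement. The Irx3 window is chr8:91801605-91801904 on the minus strand, the Lhx1 window chr11:84525485-84525784 on the minus strand, the Six3 window chr17:85620584-85620883 on the plus strand, and the Six6 window chr12:72939632-72939931 on the plus strand.
Irx3: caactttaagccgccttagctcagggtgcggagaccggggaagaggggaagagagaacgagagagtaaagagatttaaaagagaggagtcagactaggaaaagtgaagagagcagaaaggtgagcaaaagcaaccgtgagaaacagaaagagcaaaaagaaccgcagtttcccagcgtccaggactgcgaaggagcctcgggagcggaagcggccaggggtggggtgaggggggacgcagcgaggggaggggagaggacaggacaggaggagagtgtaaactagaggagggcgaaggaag
Lhx1: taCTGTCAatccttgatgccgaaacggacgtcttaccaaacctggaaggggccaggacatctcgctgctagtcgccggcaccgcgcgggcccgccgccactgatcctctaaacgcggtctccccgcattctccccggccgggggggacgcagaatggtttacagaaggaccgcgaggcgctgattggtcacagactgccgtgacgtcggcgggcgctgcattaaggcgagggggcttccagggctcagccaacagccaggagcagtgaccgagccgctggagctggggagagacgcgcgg
Six3: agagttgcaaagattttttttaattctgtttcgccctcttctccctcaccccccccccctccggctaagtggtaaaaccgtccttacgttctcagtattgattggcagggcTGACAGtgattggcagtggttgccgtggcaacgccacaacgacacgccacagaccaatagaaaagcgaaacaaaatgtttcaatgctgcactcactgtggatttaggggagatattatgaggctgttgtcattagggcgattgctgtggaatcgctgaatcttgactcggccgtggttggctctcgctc
Six6: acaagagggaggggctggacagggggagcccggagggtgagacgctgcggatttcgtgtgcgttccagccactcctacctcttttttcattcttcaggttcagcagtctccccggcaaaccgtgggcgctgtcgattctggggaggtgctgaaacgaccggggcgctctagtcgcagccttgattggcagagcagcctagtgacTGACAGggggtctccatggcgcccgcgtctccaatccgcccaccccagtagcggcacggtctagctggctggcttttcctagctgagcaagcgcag

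Promoter windows were found for 33 of the 44 genes, 47 windows in all, set against 32851 windows of all genes in the table. The homeobox windows had a median GC content of 60.3% and a median observed over expected CpG ratio of 0.699, against 52.7% and 0.384 for all windows. Of 3 letter patterns searched on both strands, TAATTA, the palindromic core bound by many homeodomains, was in 0 of 47 windows (0%) against 5.29% of all. TGACAG, the Meis and Tgif core, was in 9 windows (19.1%) against 19.2%, including those of Lhx1, Six3 and Six6 shown above. ACANNTGT, the palindrome known for Iroquois proteins in the fruit fly, was in 3 windows (6.38%) against 7.38%. A match to these letters is a description of the window and not a binding site.

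Depth limited which genes could be compared. The 44 genes summed to 5977 UMIs in Irx5KO and 5079 UMIs in WT, and single genes had 2 to 1611 UMIs over both libraries. Of the 44, 32 genes reached 50 UMIs over all cells and 12 did not, among them all 5 Irx genes. Of those 12, 3 had fewer than 10 UMIs. In the 6 classes where each library held 50 cells or more, 29 genes reached 50 UMIs in at least 1 class.

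Irx5 itself was counted only in the WT library, and Irx3 had fewer UMIs in Irx5KO. Irx5 had 0 UMIs in 1949 Irx5KO cells, which allows up to 0.610 CPM (UMIs of a gene per 1000000 UMIs of all genes in the same cells) at 3 counts, against 13 UMIs or 3.28 CPM in WT cells. With the WT level as counted, Irx5 was at least 5.38-fold lower in Irx5KO, where 3' reads outside the missing part, if any, would not check the deletion. Irx3, an Iroquois factor whose gene is the neighbour of Irx5, had 4 UMIs in Irx5KO and 28 UMIs in WT.

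The Irx genes were counted in few cell classes. Most UMIs of Irx3 and Irx5 came from the ependymal-like and the OPC-like class. Irx3 had 2 UMIs in Irx5KO and 16 in WT in ependymal-like cells, and 1 and 8 in OPC-like cells, and Irx5 had 0 and 5 in each of these classes. Irx1 and Irx2, which share a cluster on another chromosome, were found mostly in OPC-like cells, where Irx1 had 12 UMIs in Irx5KO and 11 in WT, and Irx2 had 6 and 8. Irx6, the third gene of the Irx3 and Irx5 cluster, had 0 UMIs in Irx5KO and 2 in WT.

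The classes that held most Irx3 and Irx5 UMIs were smaller shares of the Irx5KO library. Ependymal-like cells were 2.26% of Irx5KO and 7.60% of WT cells, and OPC-like cells were 4.0% of Irx5KO and 10.2% of WT cells. At the WT level of each class, the Irx5KO library would hold 12.5 Irx3 UMIs, against 4 observed, and 7.43 Irx5 UMIs, against 0 observed. Within ependymal-like cells Irx3 was at 29.8 CPM in Irx5KO (3.61 to 108) and 63.1 CPM in WT (36.1 to 102), and these intervals overlap. In OPC-like cells Irx3 was at 9.06 CPM in Irx5KO (0.229 to 50.5) and 30.1 CPM in WT (13 to 59.3). These intervals overlap as well. Neither a within-class difference of Irx3 nor the part of the cell mix in the Irx3 and Irx5 counts was tested. Irx1 in the same OPC-like cells was at 109 CPM in Irx5KO (56.2 to 189.8) and 41.4 CPM in WT (20.7 to 74.0), a gap in the other direction that rests on fewer than the 50 UMIs required for a ratio elsewhere.

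**Figure D1:**
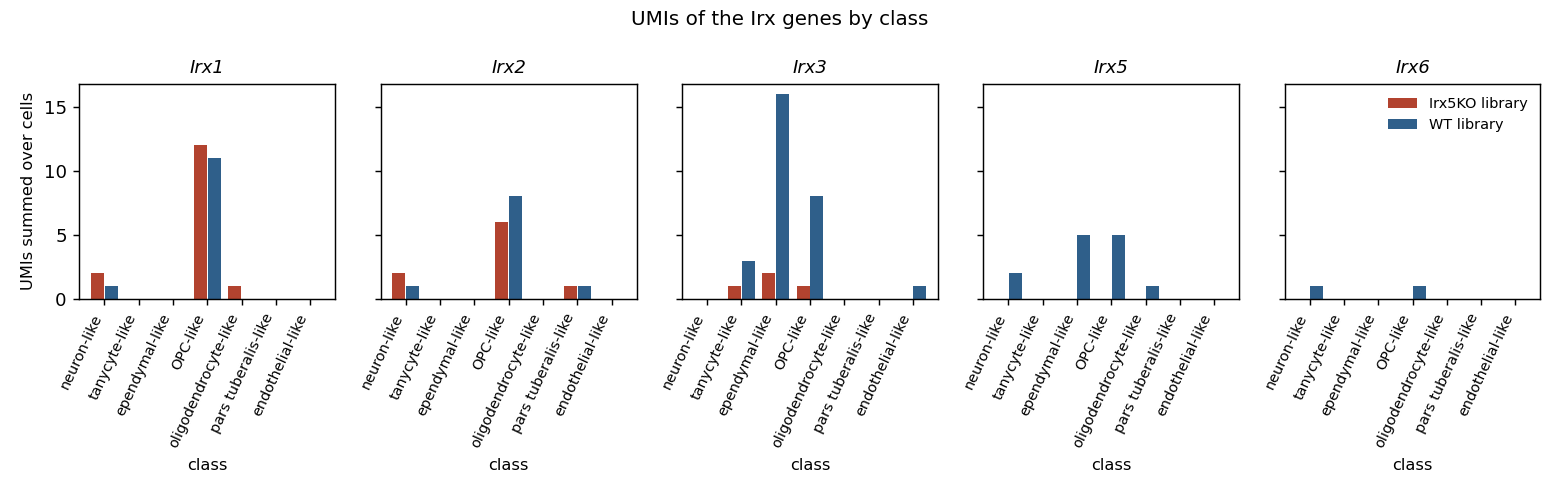
UMIs of the 5 Irx genes summed over the cells of each class (number of UMIs, Irx5KO left and WT right). Irx5 has UMIs in WT alone, and Irx3 has most of its UMIs in ependymal-like cells, with 2 in Irx5KO and 16 in WT.

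Across all cells, 9 of 32 homeobox genes with at least 50 UMIs were at least 1.5-fold apart between the libraries, where 21.8% of all genes with that many UMIs were. For 4 of these, Pitx1, Nkx6-2, Pou3f3 and Pbx3, the gap was under 1.5-fold once the Irx5KO UMIs were set against those expected at WT class levels. Pitx1, for example, was at 21.2 CPM in Irx5KO and 40.1 CPM in WT over all cells, and its ratio of observed to expected UMIs was 0.805. Nkx6-2 went to the other side, with a ratio of 0.652 over all cells and 1.17 against the expected UMIs. The remaining 5 were Lhx1, Rax, Otp, Gsx1 and Nkx2-2, which are described with their classes.

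The homeobox genes were spread unevenly over the classes, in much the same way in both libraries. The highest of 11 classes was the same one in Irx5KO and WT for 23 of 32 genes, against 39.2% of all genes with at least 50 UMIs. Across those 11 classes the median Pearson r of a gene's log2(CPM + 10) between the libraries was 0.763 for the 32 homeobox genes and 0.501 for all 14380 such genes. These correlations are a description: the classes were made by 1 clustering of both libraries, and r also moves with how many UMIs a gene has.

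**Figure D2:**
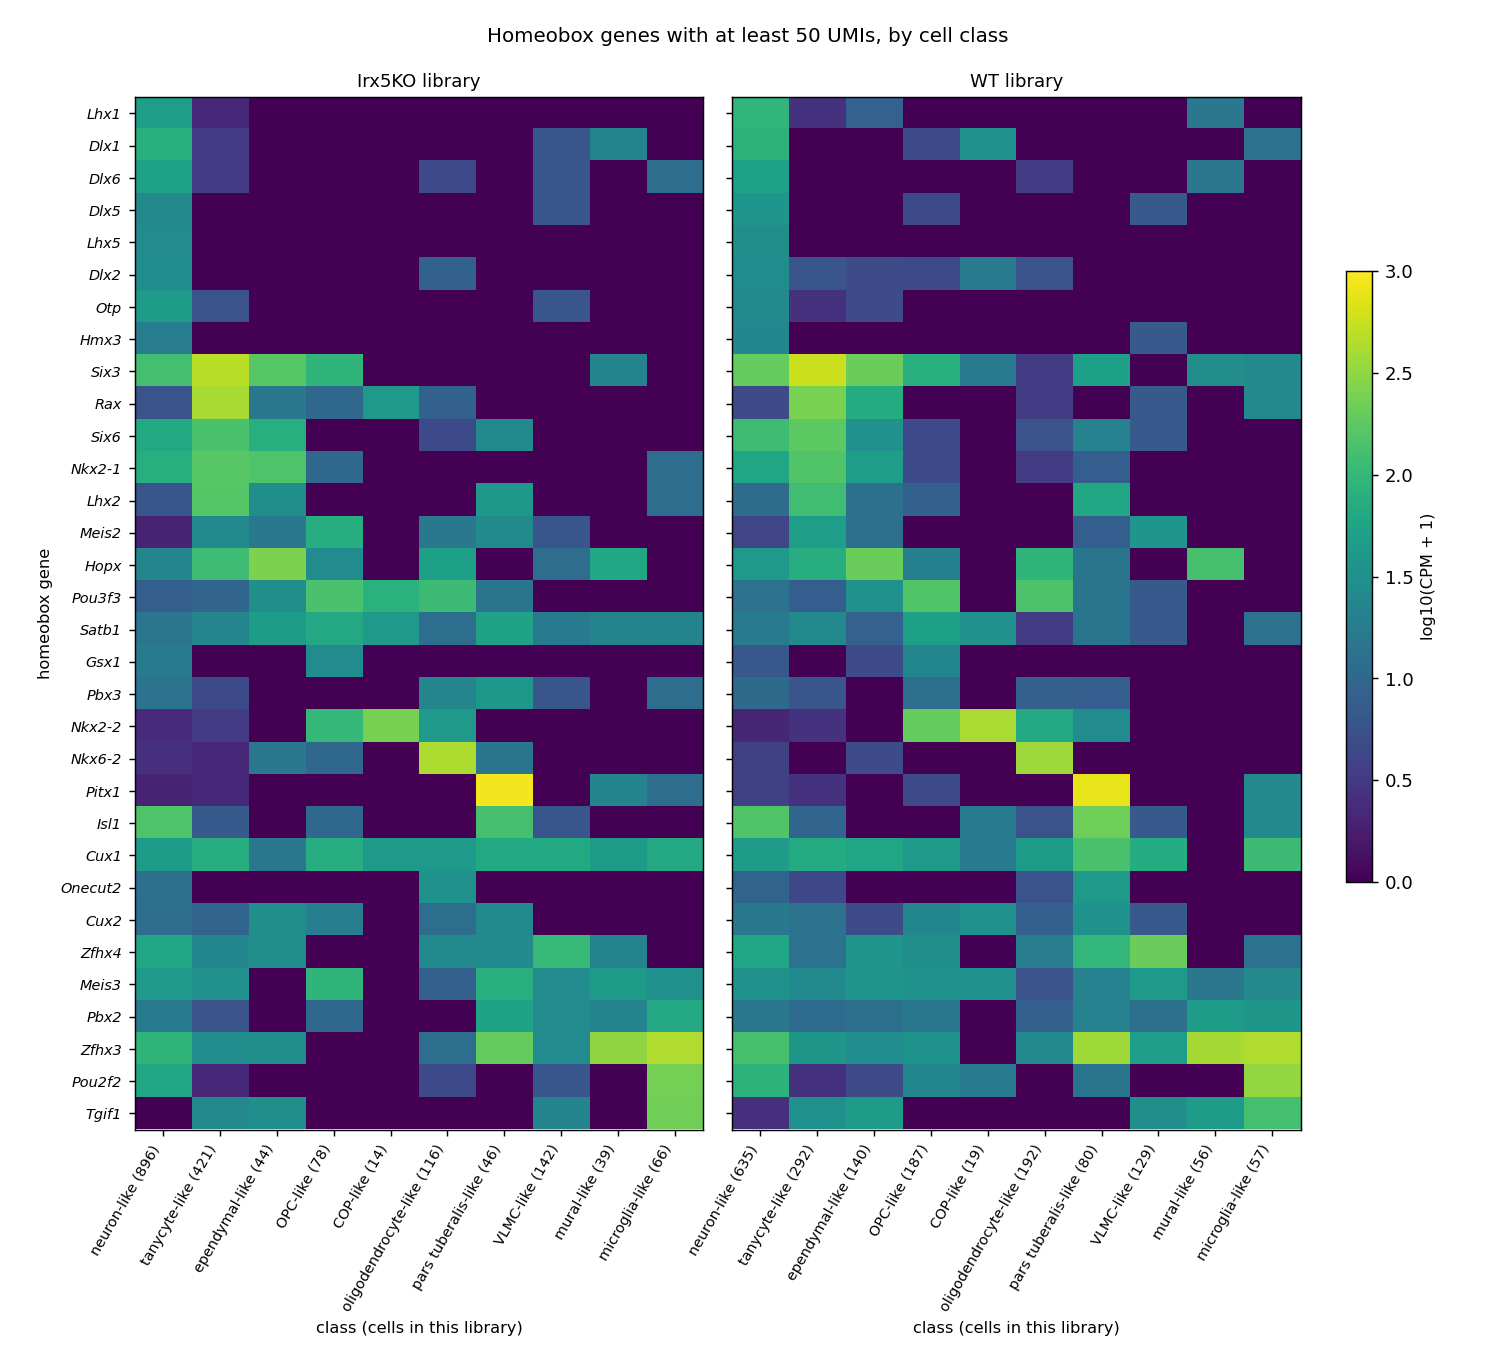
Levels of the 32 homeobox genes with at least 50 UMIs, as log10(CPM + 1), in 10 cell classes of the Irx5KO library (left) and the WT library (right), with the number of cells in parentheses. Bright cells fall in the same columns in both panels, as for Pitx1 in pars tuberalis-like cells at 878 CPM in Irx5KO and 771 CPM in WT.

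In tanycytes, elongated glia that reach from the ventricle to the median eminence, 7 of 32 homeobox genes were at least 2-fold above the other cells in both libraries, against 7.18% of all genes. They were Rax, Lhx2, Six3, Six6, Nkx2-1, Meis2 and Tgif1. Of these, Meis2 was low in the larger of the 2 tanycyte clusters described below. Rax, a paired-like factor of the retina and hypothalamus that tanycytes keep into adult life, was 71.3-fold above the other cells in Irx5KO and 27.8-fold in WT. Lhx2, a LIM factor of the developing eye, was 27.3-fold above the other cells in Irx5KO and 11.8-fold in WT.

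Rax was higher in the Irx5KO tanycyte-like cells. It had 326 UMIs in Irx5KO and 144 UMIs in WT, or 400.1 CPM in Irx5KO (358 to 446) and 247 CPM in WT (208 to 291), and these intervals do not overlap. The ratio was 1.62 (1.33 to 1.98). After thinning each cell to 1000 UMIs, a Rax UMI was found in 26.9% of 334 Irx5KO and 20.2% of 247 WT tanycyte-like cells, and without thinning in 39.9% and 32.2%. In neuron-like cells, which should lack Rax, the thinned shares were 0.392% and 0.577% in Irx5KO and WT, at median depths of 2418.5 and 2129 UMIs against 1596 and 1769 UMIs in tanycyte-like cells. The summed level of the 10 tanycyte markers in the same cells was 3459 CPM in Irx5KO and 2804 CPM in WT, that of 7 astrocyte markers 3780.0 CPM in Irx5KO and 2700.0 CPM in WT, and that of 8 neuron markers 2335 CPM in Irx5KO and 2672 CPM in WT. Their part in the Rax gap was not tested. The Rax ratio fell under 1.5-fold in 2 of 10 alternative settings.

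Hopx, a small homeodomain-only protein that does not bind DNA, was the other gene past 1.5-fold in tanycyte-like cells. It was at 115 CPM in Irx5KO (93.2 to 141) and 72.1 CPM in WT (52.0 to 97.4), a ratio of 1.60 (1.10 to 2.36), and fell under 1.5-fold in 8 of 10 alternative settings. Thus 2 of 7 genes with enough UMIs were at least 1.5-fold higher and 0 of 7 lower, where 10.6% and 8.06% of all genes in these cells were. Of the others, Lhx2 was at 159.6 CPM in Irx5KO and 118 CPM in WT, Nkx2-1 at 167 and 151 CPM, Six3 at 493 and 582 CPM, and Six6 at 138 and 173 CPM. The intervals of the ratios of Lhx2, Nkx2-1, Six6 and Cux1 included 1, and that of Six3, 0.848 (0.732 to 0.983), did not.

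Tanycyte-like cells formed 2 clusters, one led by Scn7a and Col25a1 with 103 Irx5KO and 75 WT cells, and one led by Crym and Frzb with 318 Irx5KO and 217 WT cells. Six3, Six6 and Nkx2-1, 3 of 7 genes, were at least 2-fold higher in the Scn7a cluster than in the other in both libraries, against 4.54% of all genes, and 0 of 7 were so in the Crym cluster, against 6.37%. Six3, a forebrain and eye factor, was at 748 CPM in Irx5KO and 964 CPM in WT in the Scn7a cluster, and at 371 and 377 CPM in the Crym cluster. Nkx2-1, which specifies the ventral hypothalamus, was at 291 and 270.4 CPM in the Scn7a cluster and 107 and 87.0 CPM in the Crym cluster. Meis2 had too few UMIs in tanycyte-like cells to be among the 7. It was at 68.0 CPM in Irx5KO and 113 CPM in WT in the Scn7a cluster, and at 5.455 and 10.55 CPM in the Crym cluster.

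By cluster, the genotype gaps were wider in the Scn7a cells. There 4 of 6 homeobox genes were at least 1.5-fold apart, against 23.5% of all genes, each with an interval leaving out 1, as for 17.3% of all genes. Rax was at 370.2 CPM in Irx5KO and 162 CPM in WT there, a ratio of 2.28 (1.52 to 3.50). Hopx, with a ratio of 1.84 (1.07 to 3.28), and Lhx2, with 1.71 (1.06 to 2.84), were also higher in Irx5KO, whereas Six6 was lower, at 223 and 334 CPM, a ratio of 0.667 (0.462 to 0.959). In the Crym cluster 0 of 7 were 1.5-fold apart, against 19.3% of all genes, and Rax was at 414 CPM in Irx5KO and 293 CPM in WT, a ratio of 1.42 (1.12 to 1.79). The difference between the clusters was not tested, and the values by tanycyte cluster were computed under 1 setting alone.

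Ependymal-like cells, which carry the cilia that move cerebrospinal fluid, had high Hopx and Tgif1 in both libraries, 2 of 32 genes against 8.06% of all. Hopx was at 254 CPM in Irx5KO (148 to 406) and 205 CPM in WT (153 to 269). Six3 was at 164 CPM in Irx5KO (81.9 to 294) and 213 CPM in WT (160.0 to 278), below its level in tanycyte-like cells in both libraries. Rax was at 14.9 CPM in Irx5KO (0.378 to 83.1) and 71.0 CPM in WT (42.1 to 112) in these cells, from 1 and 18 UMIs, and with 44 Irx5KO cells no ratio is drawn.

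In the oligodendrocyte lineage the NK-like factors differed by stage. OPC-like cells had 4 genes at least 2-fold above other cells in both libraries, Nkx2-2, Pou3f3, Satb1 and Gsx1, against 7.36% of all genes. Gsx1 rests on few UMIs there, at 27.2 CPM in Irx5KO and 22.6 CPM in WT. Committed precursor (COP)-like cells had 1, Nkx2-2, against 5.84%, and oligodendrocyte-like cells 3, Nkx2-2, Nkx6-2 and Pou3f3, against 6.35%. Nkx2-2, known to promote oligodendrocyte differentiation, was at 242 CPM in Irx5KO and 416 CPM in WT in COP-like cells and at 41.2 and 63.9 CPM in oligodendrocyte-like cells. The COP-like values rest on 14 Irx5KO and 19 WT cells, where the NK-like genes together had 6 and 26 UMIs. Nkx6-2, a factor of myelinating cells, was at 424 CPM in Irx5KO (349 to 509) and 359 CPM in WT (303 to 422) in oligodendrocyte-like cells. Pou3f3, a POU factor of neural progenitors, was at 136 and 150.5 CPM in OPC-like cells and at 112 and 142 CPM in oligodendrocyte-like cells.

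Nkx2-2 was lower in the Irx5KO OPC-like cells. It had 11 UMIs in Irx5KO and 52 UMIs in WT, or 99.6 CPM in Irx5KO (49.7 to 178) and 196 CPM in WT (146 to 256), a ratio of 0.509 (0.240 to 0.988). The level intervals overlap, and the upper bound of the ratio lies close to 1. It was 1 of 2 genes with enough UMIs in OPC-like cells, where 22.5% of all genes were 1.5-fold apart. The 7 OPC markers summed to 9872 CPM in Irx5KO and 8554 CPM in WT in these cells, and their part in the gap was not tested.

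Pituitary, vascular and immune cells held other homeobox genes. Pitx1, a paired-like factor of the anterior pituitary, was 115-fold above the other cells in Irx5KO and 63.9-fold in WT in pars tuberalis-like cells, with Zfhx3 and Cux2 also at least 2-fold above, 3 of 32 genes against 5.66% of all. Pitx1 there was at 878 CPM in Irx5KO (680.1 to 1114) and 771 CPM in WT (636 to 927), and the intervals overlap. Isl1, a LIM factor, was at 131 CPM in Irx5KO and 218 CPM in WT in the same cells. Pitx1, Isl1 and Tgif1 were also 2-fold above the other cells in the unnamed cells, 3 of 32 against 6.7% of all, which lay in a cluster led by Bpifa1, Krt18 and Epcam and a cluster led by Krt17 and Krt5. Pitx1 was at 302 CPM in Irx5KO and 780.4 CPM in WT in the Krt18 cluster and at 279 and 182 CPM in the Krt5 cluster.

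Microglia-like cells had Zfhx3, Pou2f2, Tgif1 and Pbx2 at least 2-fold above other cells, 4 of 32 genes against 7.45% of all. Pbx2 rests on few UMIs there, where all TALE genes together had 32 UMIs in Irx5KO and 15 in WT. Its exons overlap another gene on the same strand, Gpsm3. Zfhx3, a large zinc finger homeobox protein, was at 439.9 CPM in Irx5KO (316 to 597) and 437 CPM in WT (304 to 608). Pou2f2, known as a factor of B cells, was at 236 and 325 CPM. Zfhx4, a relative of Zfhx3, was the single gene past 2-fold in vascular leptomeningeal (VLMC)-like cells, against 6.33% of all genes, and Zfhx3 the single one in mural-like cells, against 6.09%.

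Zfhx4 was lower in the Irx5KO VLMC-like cells, at 103 CPM in Irx5KO (61.8 to 160.2) and 206 CPM in WT (143 to 286), a ratio of 0.499 (0.270 to 0.897). It was the single homeobox gene with enough UMIs there, where 27.2% of all genes were 1.5-fold apart, and the 7 VLMC markers summed to 30960.0 CPM in Irx5KO and 40930.0 CPM in WT. In oligodendrocyte-like cells 1 of 3 genes was 1.5-fold apart, Hopx, with a ratio of 0.536 (0.262 to 1.03), against 19.9% of all genes. In microglia-like cells 0 of 1 was, against 32.8%.

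Neuron-like cells had 10 of 32 homeobox genes at least 2-fold above other cells in both libraries, against 12% of all genes. They were Dlx1, Dlx2, Dlx5, Dlx6, Isl1, Lhx1, Lhx5, Otp, Hmx3 and Pou2f2. Lhx5, a LIM factor of the developing forebrain, was counted in neuron-like cells alone, with 83 UMIs in Irx5KO and 54 UMIs in WT.

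Within neurons the same genes differed by type. The highest of 10 neuron clusters was the same one in both libraries for 17 of 24 genes with at least 50 UMIs in neurons, against 21.3% of all genes, and the median r across the 10 clusters was 0.891 for those 24 and 0.25 for all genes. Suprachiasmatic (SCN)-like cells, led by Vip and Nms, had 6 genes at least 2-fold above other neuron-like cells in both libraries, against 2.48% of all genes. They were Six3, Six6, Lhx1, Zfhx3, Pou2f2 and Dlx6. Six3 was at 669 CPM in Irx5KO and 652 CPM in WT, and Six6, its relative in eye and pituitary development, at 310.4 and 383 CPM. Lhx1, which the SCN needs for synchrony in mice, was at 262 and 244 CPM, and Zfhx3, known to act on circadian rhythm in mice, at 268 and 269 CPM. Of neuron-like cells with at least 2 Vip UMIs, 18 of 25 in Irx5KO (72.0%) and 17 of 19 in WT (89.5%) had a UMI of Six3, against 18.1% and 24.8% of the other neuron-like cells.

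Foxb1-like cells, named by a gene of mammillary neurons, had 9 of 24 homeobox genes at least 2-fold above the other neurons, against 3.61% of all genes. They were Lhx1, Lhx5, Hopx, Onecut2, Pou2f2, Nkx2-1, Zfhx3, Zfhx4 and Cux2. Lhx1 was at 334 CPM in Irx5KO and 324 CPM in WT and Hopx at 226 and 252 CPM. Onecut2, a CUT factor, was at 145 and 63.0 CPM, from 16 and 7 UMIs. Cux2 also rests on few UMIs, at 36.2 CPM in Irx5KO and 36.0 CPM in WT. Lhx1 was thus high in both the SCN-like and the Foxb1-like cells, in either library.

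Fewer of these genes were past 2-fold in the arcuate types, where fewer of all genes were as well. Otp, a paired-like factor that neuroendocrine neurons require, was highest in Agrp-like cells, at 363 CPM in Irx5KO and 233 CPM in WT, 18.9-fold and 15.6-fold above other neurons. Of neuron-like cells with at least 2 Agrp UMIs, 29 of 40 in Irx5KO (72.5%) and 9 of 15 in WT (60%) had a UMI of Otp, against 4.21% and 2.74% of the other neuron-like cells. In KNDy-like cells, which make kisspeptin and neurokinin B, Lhx5 was at 129 CPM in Irx5KO and 198 CPM in WT. Agrp-like cells had 2 of 24 genes past 2-fold, Otp and Satb1, against 1.4% of all, and KNDy-like cells 1, Lhx5, against 1.82%. Satb1 rests on few UMIs in Agrp-like cells, at 33.3 CPM in the 14 WT cells. The Ghrh-like and Pomc-like clusters had 0, against 0.284% and 0.458%. The names of these clusters are uncertain. The 5 Ghrh neuron markers summed to 2172 CPM in Irx5KO and 1473 CPM in WT in Ghrh-like cells. In SCN-like cells they summed to 3238 and 2726 CPM. The 5 Pomc neuron markers in Irx5KO summed to 2952 CPM in Pomc-like and 4219 CPM in KNDy-like cells. In WT they summed to 8370 CPM in Pomc-like and 5589 CPM in KNDy-like cells. A cluster led by Fezf1 and Calca also had 0, against 2.01%. The marker rule named it glutamatergic, but its 3 GABAergic markers summed to 1220.0 CPM in Irx5KO and 903 CPM in WT and its 5 glutamatergic markers to 600.0 CPM in Irx5KO and 519 CPM in WT, so it is called the Fezf1 cluster here.

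Isl1, a LIM factor of Pomc neuron development in mice, was spread over several types. It was at 222 CPM in Irx5KO and 231 CPM in WT in Pomc-like, 212 and 189 CPM in Ghrh-like and 225 and 199.7 CPM in Agrp-like cells, and at 5.35 and 0 CPM in SCN-like cells. Among the unnamed neuron clusters, one led by Tac1, Trh and Sox14 had 3 genes, Gsx1, Dlx5 and Pbx3, at least 2-fold above other neurons, against 0.577% of all genes. Of the 10 neuron clusters, Isl1 was highest in this Tac1 cluster, at 265 CPM in Irx5KO and 352 CPM in WT. One led by Pdyn, Cck and Ppp1r17 had 2, Nkx2-1 and Lhx5, against 1.22%, with Nkx2-1 at 168 CPM in Irx5KO and 162 CPM in WT. One led by Ttr and Oxt had 0 against 0.156%.

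**Figure D3:**
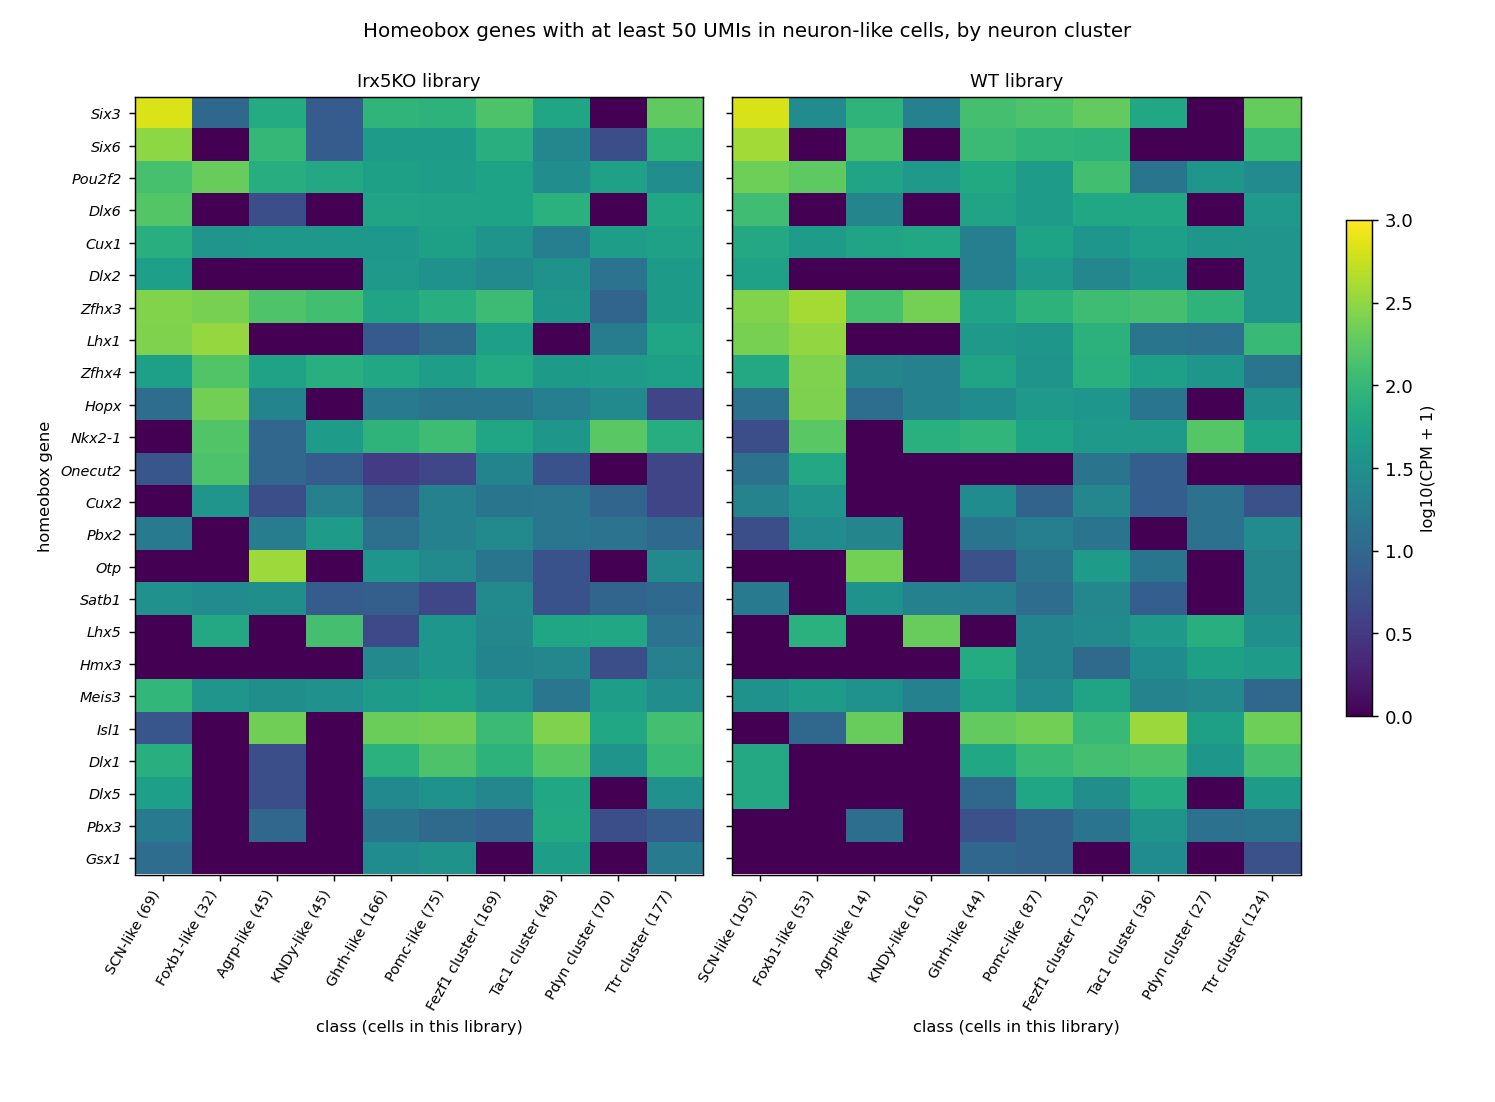
Levels of the 24 homeobox genes with at least 50 UMIs in neuron-like cells, as log10(CPM + 1), in 10 neuron clusters of the Irx5KO library (left) and the WT library (right), with the number of cells in parentheses. Otp is brightest in Agrp-like and Six3 in SCN-like cells in both panels, Six3 at 669 CPM in Irx5KO and 652 CPM in WT.

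Transmitter genes divided the neurons as well. Of 24 homeobox genes, 8 were at least 2-fold higher in neuron-like cells with UMIs of the GABA genes Slc32a1, Gad1 or Gad2 and none of Slc17a6, a glutamate transporter gene, than in the other neuron-like cells, against 0.503% of all genes. These were Dlx1, Dlx2, Dlx5, Dlx6, Gsx1, Hmx3, Pbx3 and Six6. Dlx1, a factor of GABA neuron development, was at 119.6 CPM in Irx5KO and 121 CPM in WT in those cells and at 14.5 and 27.6 CPM in the other neuron-like cells. In cells with Slc17a6 and none of the GABA genes, 3 genes were 2-fold higher, Lhx5, Hopx and Onecut2, against 0.778%. Lhx5 was at 48.5 CPM in Irx5KO and 76.2 CPM in WT there, and at 21.7 and 18.3 CPM in the other neuron-like cells.

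Some pairs of genes were counted in the same cells. Of neuron-like cells with a UMI of Dlx5, the genomic neighbour of Dlx6, 25 of 60 in Irx5KO (41.7%) and 14 of 53 in WT (26.4%) also had a UMI of Dlx6, against 9.93% and 10.1% of those without Dlx5. Of those with Six3, which lies on another chromosome than Six6, 54 of 176 in Irx5KO (30.7%) and 64 of 170 in WT (37.6%) also had a UMI of Six6, against 7.36% and 9.03% of those without Six3. Of those with Lhx1, 4 of 76 in Irx5KO (5.26%) and 4 of 94 in WT (4.25%) also had a UMI of Lhx5, against 7.32% and 6.47% of those without Lhx1. The shares of Lhx1 and Lhx5 rest on 4 cells in each library, and a cell without a UMI may still express the gene. Deeper cells are more likely to hold a UMI of any gene, and this was not taken out of these shares.

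Between genotypes, 6 of 24 homeobox genes were at least 1.5-fold apart in neuron-like cells, where 18.9% of all genes were. Gsx1 and Otp were higher in Irx5KO, 2 genes against 12.4% of all, and Lhx1, Hopx, Six6 and Six3 were lower, 4 genes against 6.51% of all. The median log2 ratio was -0.10 for the 24 genes and 0.07 for all genes measured.

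Lhx1 had the lowest ratio of the 24. It had 141 UMIs in Irx5KO and 169 UMIs in WT, or 45.7 CPM in Irx5KO (38.4 to 53.9) and 92.5 CPM in WT (79.0 to 108), a ratio of 0.494 (0.392 to 0.622). Thinned to 1000 UMIs, 3.92% of 766 Irx5KO and 11.3% of 520 WT neuron-like cells had an Lhx1 UMI, against 0% and 0.405% of tanycyte-like cells, and without thinning 8.48% and 14.8% of neuron-like cells. Six6 was at 65.4 CPM in Irx5KO (56.7 to 75.1) and 115 CPM in WT (100.4 to 132), a ratio of 0.567 (0.465 to 0.691). Six3 was at 126 CPM in Irx5KO (114 to 139) and 197 CPM in WT (177 to 218), a ratio of 0.638 (0.551 to 0.739), which fell under 1.5-fold in 4 of 12 alternative settings. For these genes the level intervals of the libraries do not overlap.

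The mix of neuron types differed between the libraries as well. SCN-like cells, where Lhx1, Six3 and Six6 were each at least 2-fold above other neurons, were 7.70% of Irx5KO and 16.5% of WT neuron-like cells, Foxb1-like cells 3.57% of Irx5KO and 8.35% of WT, and Ghrh-like cells 18.5% of Irx5KO and 6.93% of WT. With the Irx5KO UMIs set against those expected at the WT level of each neuron type, a comparison added after the values were seen, the ratio was 0.674 for Lhx1, 0.822 for Six3 and 0.673 for Six6, all short of 1.5-fold. Hmx3 (0.546), Cux2 (0.646) and Onecut2 (2.05) were past it there and not before, so that 5 of 24 genes were 1.5-fold apart in that comparison, against 6 without it. Without the SCN-like cells the ratios were 0.454 for Lhx1, 0.703 for Six3 and 0.658 for Six6. Without the Ghrh-like cells they were 0.608, 0.672 and 0.635, and without the Foxb1-like cells 0.451, 0.625 and 0.552, in the same order of genes. Within SCN-like cells Lhx1 was at 262 CPM in Irx5KO (194 to 347) and 244 CPM in WT (185 to 315), and these intervals overlap.

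Hopx was also lower in neuron-like cells, in the direction opposite to tanycyte-like cells. It was at 22.0 CPM in Irx5KO (17.1 to 27.9) and 40.5 CPM in WT (31.8 to 50.8), a ratio of 0.544 (0.386 to 0.767), and against WT neuron type levels the ratio was 0.663. Zfhx3, Dlx5 and Pou2f2 had ratios of 0.677, 0.680 and 0.694, short of 1.5-fold with intervals leaving out 1, and Nkx2-1 had 1.29 (1.03 to 1.64). Isl1 was at 150.0 CPM in Irx5KO and 154 CPM in WT, a ratio of 0.976 (0.839 to 1.14), and Dlx1, Dlx6 and Zfhx4 also had intervals that included 1.

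Gsx1, a factor that Ghrh neurons need in mice, was higher in Irx5KO. It had 50 UMIs in Irx5KO and 10 UMIs in WT, or 16.2 CPM in Irx5KO (12 to 21.4) and 5.47 CPM in WT (2.62 to 10.1), a ratio of 2.96 (1.48 to 6.55). Its UMIs lay in 37 Irx5KO and 9 WT neuron-like cells, and at WT neuron type levels the ratio was 2.88. Otp was at 45.0 CPM in Irx5KO (37.9 to 53.2) and 25.7 CPM in WT (18.9 to 34.2), a ratio of 1.75 (1.25 to 2.49). Agrp-like cells, where Otp was highest, were 5.02% of Irx5KO and 2.20% of WT neuron-like cells. Without them the Otp ratio was 1.29, and at WT neuron type levels it was 1.48, both under 1.5-fold.

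**Figure D4:**
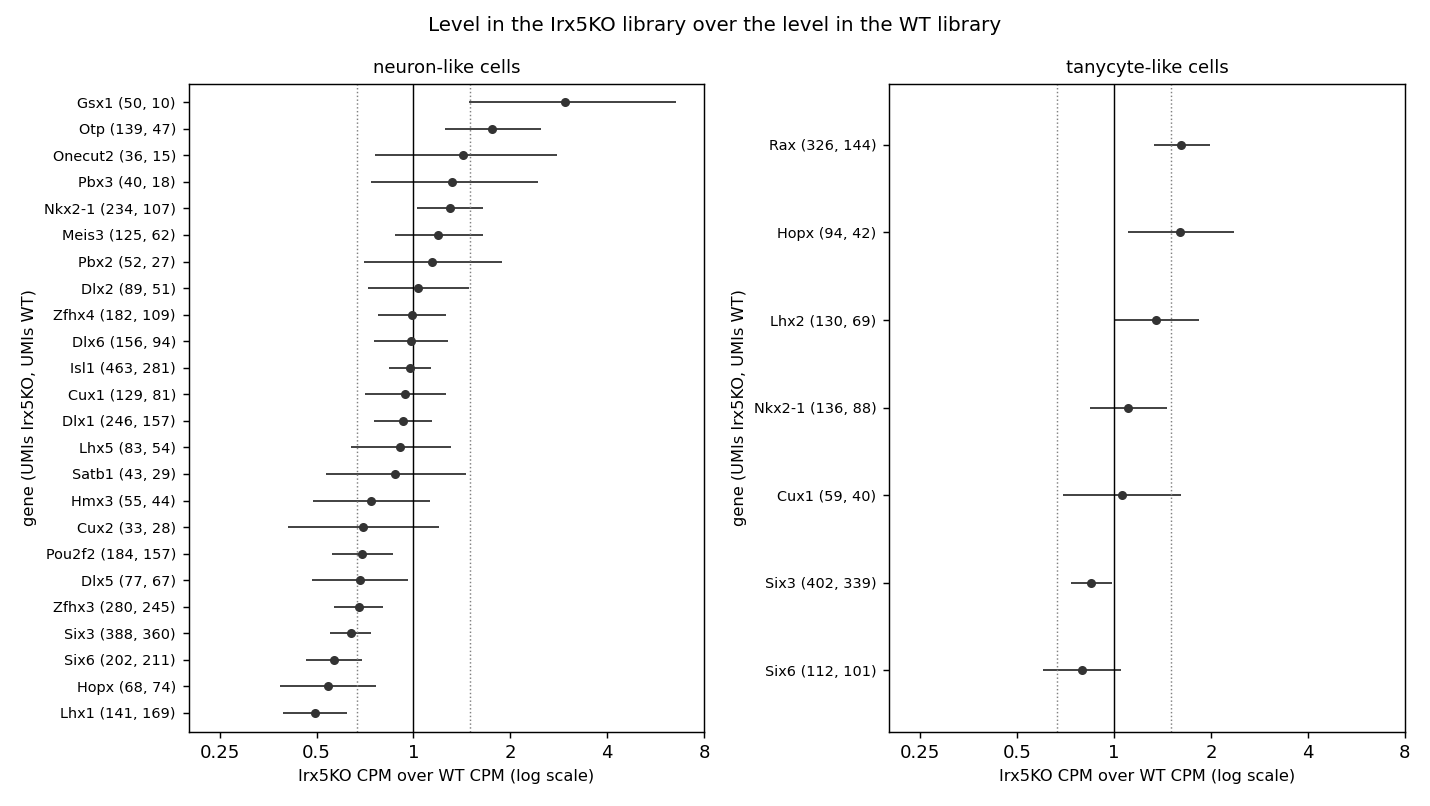
Ratio of CPM in Irx5KO over CPM in WT for the homeobox genes with at least 50 UMIs in neuron-like cells (24 genes) and tanycyte-like cells (7 genes), on a log scale, with 95% intervals of counting error, a solid line at 1 and dotted lines at 1.5-fold. Lhx1 (0.494) and Gsx1 (2.96) lie farthest out in neuron-like cells, and Rax (1.62) and Hopx (1.60) lie past the upper dotted line in tanycyte-like cells.

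Within single neuron clusters the counts were thin. Of 93 pairs of gene and cluster with at least 20 UMIs, 29 were at least 1.5-fold apart and 11 also had an interval leaving out 1, where 34.1% and 12.2% of all such pairs did. The homeobox pairs were thus near the share of all pairs. In SCN-like cells Meis3, a TALE cofactor, was at 96.3 CPM in Irx5KO and 33.6 CPM in WT, a ratio of 2.86 (1.18 to 7.61). In Pomc-like cells Six3 was at 86.2 and 148 CPM, Six6 at 43.1 and 91.5 CPM and Nkx2-1 at 116 and 53.8 CPM. The 5 Pomc neuron markers summed to 2952 CPM in Irx5KO and 8370.0 CPM in WT in the same cells, and their part in these gaps was not tested.

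In Ghrh-like cells Six6 was at 43.1 CPM in Irx5KO and 111 CPM in WT and Hmx3, a factor of hypothalamic and inner ear development, at 25.2 and 69.2 CPM. Otp had 31 UMIs in Irx5KO and 1 UMI in WT there, a ratio of 8.04 (1.34 to 328), and the 5 Ghrh neuron markers summed to 2172 CPM in Irx5KO and 1473 CPM in WT. In the Fezf1 cluster Otp was at 13.7 CPM in Irx5KO and 43.0 CPM in WT and Pou2f2 at 54.7 and 122 CPM. In the Tac1 cluster Zfhx3 was at 37.8 CPM in Irx5KO and 131 CPM in WT, and in the Ttr cluster Isl1 was at 125 and 215 CPM. The 8 SCN neuron markers summed to 2272 CPM in Irx5KO and 10110.0 CPM in WT in that Ttr cluster, and their part in the Isl1 gap was not tested. All of the Pomc-like, Ghrh-like and Fezf1 cluster differences changed sign or fell under 1.5-fold in at least 1 alternative setting.

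The genes too rare to compare are given by their UMIs over all cells. Hmx2 had 34 UMIs in Irx5KO and 10 UMIs in WT, Meis1 had 23 and 19, Tgif2 had 20 and 14, and Adnp had 13 and 21. Lhx6 had 1 and 1, Lhx8 had 1 and 4, and Lhx9 had 14 and 1. Lhx9, a LIM factor of hypothalamic neurons, had 14 UMIs in Irx5KO neuron-like cells and 0 in WT ones, where 3 counts would be 1.64 CPM, so that its Irx5KO level of 4.54 CPM was at least 2.76-fold higher. Lhx9 was chosen for this fold after its values were seen.

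Summed over families in neuron-like cells, Six3 and Six6 together were at 191 and 312 CPM (0.612, 0.544 to 0.688), in Irx5KO and WT. The paired-like genes, mostly Otp, were at 50.9 and 32.3 CPM (1.58, 1.16 to 2.16). The POU genes were at 66.7 and 98.5 CPM (0.678, 0.552 to 0.832), the zinc finger genes at 152 and 202 CPM (0.751, 0.654 to 0.863) and the LIM genes at 233 and 287 CPM (0.811, 0.724 to 0.909). The Dlx and Gsx genes were at 200.2 and 207 CPM (0.966, 0.848 to 1.10), the CUT genes at 78.1 and 83.7 CPM (0.933, 0.758 to 1.15), the TALE genes at 75.2 and 68.4 CPM (1.10, 0.880 to 1.38) and the NK-like genes at 108 and 91.9 CPM (1.17, 0.969 to 1.42), with intervals that included 1. In tanycyte-like cells the paired-like genes, mostly Rax, were at 406 and 251 CPM (1.62, 1.33 to 1.98), and Six3 with Six6 at 631 and 755 CPM (0.836, 0.734 to 0.951). The brackets hold the ratio of Irx5KO over WT and its interval. The mix of neuron types was not taken out of the family ratios in neuron-like cells.

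Of 157 further homeobox genes listed, 75 were in both tables, and 20 reached 50 UMIs in neuron-like cells. There 4 were at least 1.5-fold higher and 5 lower in Irx5KO, where 12.4% and 6.51% of all genes were. The higher ones were Pknox1, a TALE gene, with a ratio of 3.29 (1.60 to 7.61), Bsx, which Agrp neurons express, with 1.85 (1.23 to 2.87), Prox1 with 1.52 (1.08 to 2.18) and Pou6f1 with 1.53 (0.923 to 2.63). Among the lower ones were Uncx (0.458), Pou3f4 (0.504) and Tshz2 (0.660), each with an interval leaving out 1. By neuron cluster, the Prox1 ratio was 0.690 (0.360 to 1.38) in the Pdyn cluster. It was 1.82 (0.739 to 5.37) in Agrp-like and 2.68 (0.836 to 13.7) in Ghrh-like cells. For Uncx it was 1.61 (0.686 to 3.96) in Foxb1-like cells. The part of the mix of neuron types in the ratios of these further genes was not tested. In tanycyte-like cells 9 reached 50 UMIs, of which Zhx3 was 1.5-fold higher and Zeb1 1.5-fold lower, each with an interval that included 1, where 10.6% and 8.06% of all genes were.

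Counting could mix some genes with others. Exons of 16 of the 44 genes overlap a gene on the opposite strand in GENCODE M21, and nothing in the sources used here says whether the counting used strand. Such partners with more than 200 UMIs in each library were Six3os1 at Six3, with 273 UMIs in Irx5KO and 215 in WT, and 4930447C04Rik at Six6, with 267 and 221. On the same strand, exons of 7 of the 44 genes overlap another gene. One is Pbx2, which overlaps the protein-coding gene Gpsm3, with 19 UMIs in Irx5KO and 17 in WT. Near its transcript ends, Adnp shares 55.9% of its 50-base stretches with Gm20716, and Tgif2 shares 21.8% with Tgif2-ps2, so their counts are uncertain.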

How the data were processed

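For WT, the authors deposited raw UMI counts of 2800 barcodes. The authors deposited the Irx5KO library, with 2350 barcodes, and a merged table as natural log values, ln(1 + count scaled to a barcode total of 10000), judged from the values. Inverting these gave whole numbers for 100% of values within a relative tolerance of 1e-06, and WT counts recovered from the merged table differed from the deposited counts in 0 of 4276208 UMIs. The design had assumed counts for both libraries, and the recovered counts were used for Irx5KO. Per the submitters' processing notes, bcl2fastq, Picard, STAR 2.6.0b, Seurat 3 and build mm10 were used, in roles that were not stated. The Irx5KO barcodes had at most 9.93% mitochondrial UMIs, and 173 WT barcodes were absent from the merged table.

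Barcodes under 500 genes or over 20% mitochondrial UMIs were left out. Scrublet calls (expected doublets 5%) were removed, 23 of 1972 cells in Irx5KO and 10 of 1851 in WT. Cells were clustered together by the Leiden algorithm (2000 variable genes, 30 principal components, 15 neighbours, resolution 1, no batch integration), leaving out the 44 genes and 157 other homeobox genes. Clusters were named from markers by their mean log2(CPM + 10) above the median cluster, at least 1, with at least 3 markers 2-fold up. That the first 2 markers of a list be 2-fold up was required after the clusters were seen.

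UMIs were summed per class and library as CPM, with exact Poisson 95% intervals, and ratios have exact conditional binomial intervals. Shares have exact Clopper-Pearson intervals in the tables. All intervals cover counting error only. No test between genotypes was possible with 1 library each. Ratios needed 50 cells in each library and 50 UMIs, or 10 cells and 20 UMIs in neuron clusters. Genotype differences were named at 1.5-fold with an interval leaving out 1, and class patterns at 2-fold in both libraries. A class pattern needed 50 UMIs of the gene over all the cells compared. No such minimum held within the class, so some patterns rest on few UMIs. A gene at 0 was set against 3 counts of the library. The members and lists were chosen with earlier results of these data known. Some further homeobox genes are not reported here. Scripts were tested on simulated data. The software was matplotlib 3.10.9, igraph 0.11.9, anndata 0.12.19, scanpy 1.11.5, pandas 2.3.3, scipy 1.17.1 and numpy 2.4.6 under Python 3.11.15.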

Additional observations from a re-analysis of the deposited data

Results flagged for a closer look

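Hopx moved in opposite directions in 2 classes of the same contrast. Its log2 ratio of Irx5KO over WT was -0.88 in neuron-like cells and 0.68 in tanycyte-like cells. The difference between the classes was not tested, and the tanycyte value was under 1.5-fold in 8 of 10 alternatives.

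Otp moved in opposite directions among neurons. Its log2 ratio was 0.81 in all neuron-like cells, 3.01 in Ghrh-like cells, where WT had 1 UMI, and -1.65 in the neuron cluster led by Fezf1 and Calca. These differences were not tested, and the Ghrh-like and Fezf1 cluster values each changed sign in an alternative.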

How the results depend on the processing

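The results were recomputed under 12 alternatives and 2 added after the data were seen, giving 590 values. Of these, 546 stayed within set limits, 37 moved past them and 7 changed sign. The limits were the counting interval of the reported ratio or UMI count, and 1.5-fold for a count of genes. A ratio within its interval can still fall short of 1.5-fold. Of 21 named ratios, 14 did so in at least 1 alternative, in 39 of 197 values. The log2 ratios of Gsx1 (1.40 to 1.71) and Hopx (-1.15 to -0.59) in neuron-like cells stayed past 1.5-fold throughout. Those of Lhx1 (-1.14 to -0.57) and Six6 (-0.87 to -0.57) fell short only at WT neuron type levels. Six3 there ranged from -0.78 to -0.28 and was short in 4 of 12, and Otp, from 0.57 to 1.11, in 1. Rax in tanycyte-like cells ranged from 0.50 to 0.99.

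Genes at least 1.5-fold lower in neuron-like cells, 4 as reported, were 7 with cells of at least 200 genes, 8 by the mean over cells, 7 with at least 20 UMIs and 13 with no UMI minimum. Genes higher in tanycyte-like cells, 2 as reported, were 1 with cells of at least 200 genes, a 10% mitochondrial limit, homeobox genes in the clustering, resolution 2 or barcodes of the merged table only. They were 0 without doublet removal or by the mean over cells, and 4 with no UMI minimum. Genes lower there, 0 as reported, were 1 with cells of at least 200 genes or at least 20 UMIs and 3 with no UMI minimum. Genes apart in the other classes, 3 as reported, were 5 with cells of at least 200 genes, 1 with at least 800, 6 with at least 20 UMIs and 33 with no UMI minimum. Genes 2-fold up in ependymal-like cells, 2 as reported, were 1 with cells of at least 200 genes, a limit of 10%, no doublet removal, homeobox genes in the clustering, resolution 2 or merged barcodes only. Those in OPC-like cells, 4 as reported, were 7 with at least 20 UMIs, and those in Agrp-like cells, 2 as reported, were 1 with cells of at least 200 genes, merged barcodes only or the mean over cells.

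Log2 ratios changed sign in Ghrh-like cells for Hmx3 (0.82) and Six6 (0.00946) with homeobox genes in the clustering and for Otp (-0.21) with at least 800 genes. They did so in Pomc-like cells for Nkx2-1 (-0.0738) with at least 800 genes and Six3 (0.094) without doublet removal, and in the Fezf1 cluster for Otp (0.0230) without doublet removal and Pou2f2 (0.26) at resolution 2. The cause was not tested. Values by tanycyte cluster, transmitter genes and pairs of genes were not recomputed, and those of unnamed clusters only where the clustering was kept. No paired analysis was possible because each genotype has 1 library and the labels give no replicate numbers.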
